A study of Oryza sativa with 12 samples.

Results

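The NAC genes of rice (Oryza sativa) encode a plant-specific family of transcription factors, and those measured here were read in phosphate-starved shoots of wild type and 3 phosphate signalling mutants. Members were all genes whose symbol or synonym in the gene table is NAC, ANAC, ONAC or SNAC followed by a number, with or without an Os prefix. The rule matched 10 genes. Of these, 8 had a probe set (a group of array probes read as 1 value) that names exactly 1 gene, out of 17905 such genes on the array. OsNAC8 (LOC4325120) lay only on probe sets shared with another gene and ONAC077 had no probe set in the annotation used, so neither was measured. The rice family is larger than these members, and other NAC genes were not analysed here.

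Every plant grew hydroponically on 200 µM phosphate for 14 days and was moved to medium lacking phosphate for 7 days, so all 4 groups were starved. The groups were the wild type (WT, cultivar Nipponbare), the phr1 mutant, the phr3 mutant and the phr123 triple mutant, with 3 biological repeats of each, every repeat on its own array. The labels give neither the mutant alleles nor the background of the mutants, and they name leaf as the tissue where the protocol names shoots. PHR1, PHR2 and PHR3 belong to the MYB class of transcription factors and in rice activate the genes of the phosphate starvation response. No phr2 single mutant and no double mutant was among the groups, so the loss of PHR2 alone was not tested.

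NAC proteins bind DNA through a conserved domain at their start and activate or repress genes through a variable tail. In leaves, members of the family are known for responses to drought, salt, cold and abscisic acid, for defence and cell death, for leaf senescence and for the building of secondary cell walls. Many NAC genes are themselves raised by stress at the transcript level, which is the level measured here.

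As a check of the labels, the targeted genes were read on every array. PHR1 had signals of 876.9, 1096 and 1154 in WT and of 404.3, 514.2 and 559.5 in phr1. In phr123 it read 569.1, 753 and 810.6, below every WT array but above every phr1 array. PHR2, in its brighter probe set, had 1750 to 2031 in WT and 18.3 to 43.8 in phr123. PHR3 had 386.7 to 469.1 in WT, 57.7 to 118.9 in phr3, and 1187, 172.6 and 118.3 in phr123 replicates 1, 2 and 3. The array labelled phr123 replicate 1 thus goes against its label at PHR3, although PHR2 was low on it, and values for phr123 with that array (the doubted array) left out are given beside the NAC results and for the gene lists. The positions of these probe sets relative to the disruptions are unknown here. As a check of the tissue, 6 measured genes of photosynthesis were very bright, with summed signals of 341555 to 349156 in WT, 342326 to 374501 in phr1, 305161 to 356877 in phr3 and 229457 to 266654 in phr123. Of the 5 tested, 1 rose and 4 fell in phr123 (median log2 change -0.37), where 20.5% of all probe sets rose and 21% fell, and 1 rose and 3 fell with the doubted array left out. These falls came in the genotype in which OsNAC3, OsNAC4, OsNAC5 and ONAC045 rose, and their part in the NAC results was not tested. In phr3, where OsNAC3 and OsNAC5 rose too, 0 of the 5 passed (median -0.05), and in phr1 0 passed (median 0.06). With arrays centred on their medians, 2 of the 5 photosynthesis genes passed in phr123. Root and flower markers were far dimmer. The 6 root markers summed to 1174 to 1490 in WT and 1105 to 1535 in phr123. The 9 flower markers summed to 2309 to 2548 in WT, 1542 to 1885 in phr1, 1696 to 2573 in phr3 and 1596 to 1806 in phr123. Of 3 root markers tested, 0 passed in phr123 (median -0.63). Of 3 flower markers tested, 2 fell there (median -0.51), or 1 under some alternatives. These counts were the same with the doubted array left out. GAPDH control probe sets, whose 3' minus 5' log2 signal reflects RNA quality, gave differences of 2.18 to 2.45 in WT, 1.80 to 2.49 in phr1, 1.36 to 2.51 in phr3 and 1.54 to 1.80 in phr123, and the part of RNA quality in the results was not tested.

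The 6 NAC genes bright enough to be tested did not move alike. OsNAC3 and OsNAC5 rose in phr3 and in phr123 and did not pass the test in phr1. OsNAC4 and ONAC045 rose in phr123 and lay higher there than in either phr1 or phr3. OsNAC6 had higher means in phr3 and phr123 that did not pass against WT, and OsNAC2 passed in no comparison. None of the 6 fell against WT.

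**Figure D1:**
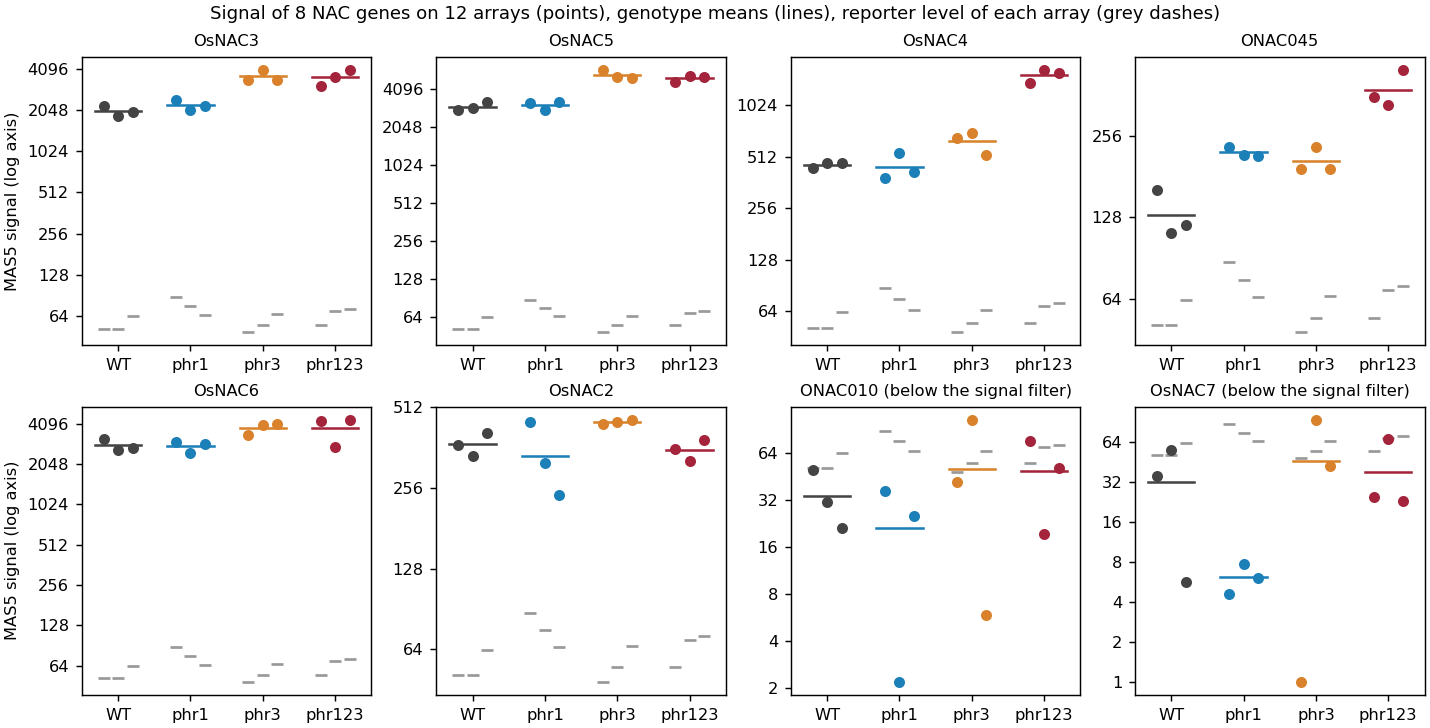
MAS5 signal (log axis) of 8 NAC genes on 12 arrays. Each point is an array, each coloured line a genotype mean (n = 3) and each grey dash the reporter level of that array, which is the 95th percentile of its control sequences from other organisms. OsNAC3 and OsNAC5 are higher in phr3 and phr123 than in WT and phr1, OsNAC4 and ONAC045 are highest in phr123, and ONAC010 and OsNAC7 lie around or below the grey dashes.

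Values below are MAS5 signals, and a log2 change is the difference of mean log2 signals. OsNAC3 (LOC4342753) encodes a stress-related NAC factor linked in rice to abscisic acid and salt responses. Its signal was 2196, 1864 and 1980 on the WT arrays and 2447, 2045 and 2200 on the phr1 arrays. It was 3435, 4033 and 3445 on the phr3 arrays and 3102, 3606 and 4017 on the phr123 arrays. All 6 arrays of phr3 and phr123 lay above all 6 arrays of WT and phr1. The rise over WT was 1.81-fold in phr3 (log2 change 0.85, SE 0.113, limma adjusted p = 0.000925) and 1.77-fold in phr123 (0.82, limma adjusted p = 4.15e-05). In phr1 the log2 change was 0.15, with a 95% interval of -0.09 to 0.39 (adjusted p = 0.723). The difference between the single mutants was itself tested, and OsNAC3 was lower in phr1 than in phr3 by a log2 difference of -0.71 (adjusted p = 0.00578). phr123 lay above phr1 by 0.68 (adjusted p = 0.000235) and differed from phr3 by -0.03, with an interval of -0.27 to 0.21 (adjusted p = 0.868). With the phr123 array labelled replicate 1 left out the change in phr123 was 0.92 (adjusted p = 1.92e-05).

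OsNAC5 (LOC4349963) encodes a factor induced by drought, salt and abscisic acid and linked to senescence. In its brightest probe set the signal was 2820, 2898 and 3240 in WT and 3177, 2822 and 3232 in phr1. It was 5797, 5112 and 4994 in phr3 and 4714, 5244 and 5125 in phr123. As for OsNAC3, the arrays of phr3 and phr123 did not overlap with those of WT and phr1. OsNAC5 rose 1.77-fold in phr3 (log2 change 0.83, SE 0.0905, limma adjusted p = 0.000195) and 1.69-fold in phr123 (0.75, adjusted p = 1.28e-05; 0.80 when the phr123 array labelled replicate 1 was left out). The change in phr1 was 0.04, with an interval of -0.15 to 0.24 (adjusted p = 0.927). OsNAC5 was lower in phr1 than in phr3 by -0.78 (adjusted p = 0.00083), and phr123 differed from phr3 by -0.07, with an interval of -0.27 to 0.12 (adjusted p = 0.557).

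The 3 probe sets of OsNAC5 agreed in phr3 and parted in phr123. The second brightest rose in phr3 (log2 change 0.77, limma adjusted p = 0.0189) and in phr123 (0.61, adjusted p = 0.00554). Its phr123 arrays read 661, 765.2 and 840.5 against 556.2, 413.4 and 518.9 in WT. The third read 625.1, 633.4 and 877 in phr3 and 472.4, 393.5 and 502.5 in phr123, against 501.3, 356.7 and 367 in WT. In that probe set the phr3 arrays were all above WT, while the phr123 arrays overlapped with WT. Its log2 change was 0.80 in phr3 (adjusted p = 0.0607) and 0.17 in phr123 (adjusted p = 0.538), and it lay lower in phr123 than in phr3 by -0.63 (adjusted p = 0.0204). The difference between phr1 and phr3 did not pass in the second (-0.46, adjusted p = 0.186) or the third (-0.71, adjusted p = 0.103), nor did that between phr123 and phr1 (adjusted p = 0.143 and 0.793). The probe design was not analysed here, so which transcript forms each probe set reads is not known.

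**Figure D2:**
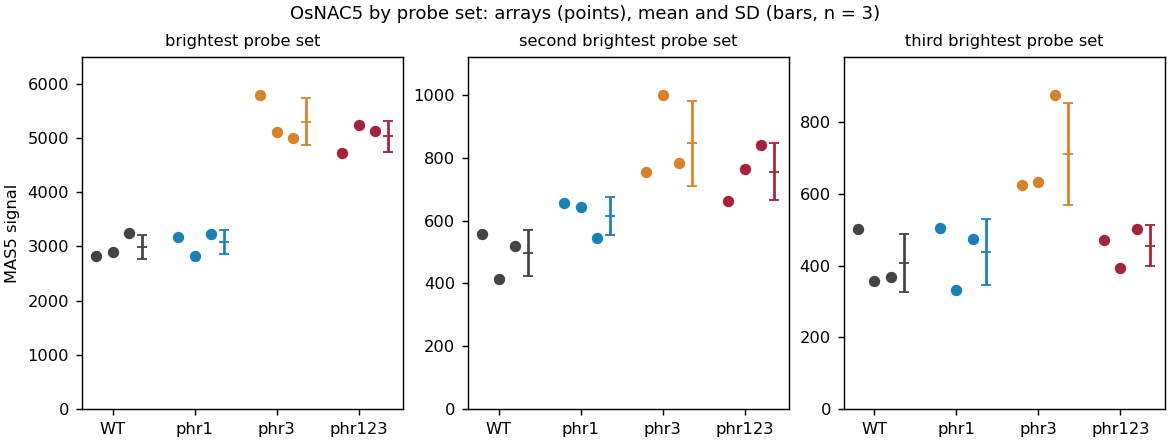
MAS5 signal (linear axis from 0) of the 3 probe sets of OsNAC5, with arrays as points and the mean ± SD (n = 3) beside them. In phr3 all 3 probe sets lie above WT, while in phr123 the third brightest has a mean of 456.1 against 408.3 in WT.

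Markers of dividing tissue had a lower summed signal in phr3 and phr123, the mutants in which OsNAC3 and OsNAC5 rose, and a higher one in phr1. The list named cyclin, mitotic kinase, replication and OSH homeobox genes. Over its 11 measured genes the summed signal was 1827 to 1984 in WT, 2242 to 2289 in phr1, 1210 to 1421 in phr3 and 1162 to 1428 in phr123. Of the 8 tested, 2 fell in phr3 (1 under most alternatives), where 0.731% of all probe sets fell, and 4 fell in phr123, where 21% did. In both mutants 0 rose, and in phr1 0 passed. With the doubted array left out 4 still fell in phr123. Of the 11, 1 was above the reporter level on no array. In such tissue samples fewer cells of a type and less RNA per cell cannot be told apart, and the part of this shift in the NAC results was not tested.

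OsNAC4 (LOC4327485) encodes a factor that induces hypersensitive cell death, the local death of cells at an infection site. It read 441.6, 471.3 and 470.2 in WT, 387.5, 541.9 and 417.6 in phr1 and 663.6, 701.1 and 528 in phr3. On the phr123 arrays it read 1379, 1642 and 1578. The phr123 arrays lay above all 9 others. OsNAC4 rose 3.32-fold in phr123 (log2 change 1.73, SE 0.148, limma adjusted p = 4.6e-07), and by 1.80 without the array labelled phr123 replicate 1. It lay above phr1 by 1.78 (adjusted p = 3.48e-07) and above phr3 by 1.29 (adjusted p = 8.89e-06), so the value in the triple mutant exceeded that of both single mutants measured. In phr3 all 3 arrays were above WT, but the change of 0.44 did not pass (adjusted p = 0.195), and in phr1 it was -0.05 with an interval of -0.37 to 0.27 (adjusted p = 0.95).

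ONAC045 (LOC4349650) encodes a factor induced by drought, salt and cold. Its signal was 161.1, 112.3 and 119.9 in WT, 233.3, 217.5 and 215.3 in phr1 and 192.5, 232.2 and 192.7 in phr3. In phr123 it was 354.3, 330.8 and 445.8. Every mutant array was above every WT array, and every phr123 array above those of phr1 and phr3. The rise in phr123 was 2.89-fold (log2 change 1.53, SE 0.202, limma adjusted p = 3e-05), or 1.57 with the phr123 array labelled replicate 1 left out. The changes of 0.78 in phr1 (interval 0.34 to 1.21, adjusted p = 0.112) and 0.66 in phr3 (interval 0.23 to 1.10, adjusted p = 0.146) did not pass over all probe sets. phr123 lay above phr1 by 0.75 (adjusted p = 0.00784) and above phr3 by 0.87 (adjusted p = 0.00324). ONAC045 was above the reporter level, the 95th percentile of an array's control sequences from other organisms, on all 12 arrays.

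OsNAC6 (LOC4325006), also called SNAC2, encodes a widely studied factor of drought, salt, cold and blast responses. In its brightest probe set it read 3168, 2621 and 2675 in WT and 2994, 2495 and 2890 in phr1. It read 3370, 3988 and 4072 in phr3 and 4321, 2720 and 4381 in phr123. The phr3 arrays all lay above WT, whereas phr123 replicate 2 lay within the WT range and the other phr123 arrays above it. The log2 change was 0.43 in phr3 (limma adjusted p = 0.256) and 0.40 in phr123 (adjusted p = 0.0574). Without phr123 replicate 2 it was 0.63 and passed (adjusted p = 0.0011), and it also passed without WT replicate 1, with arrays centred on their medians and with the replicate block (adjusted p from 0.0342 to 0.0466). With the phr123 array labelled replicate 1 left out it was 0.30 (adjusted p = 0.194). The difference between phr123 and phr1 was 0.42 (adjusted p = 0.0488), but it was lost in 14 of 22 alternatives (adjusted p from 0.0509 to 0.192), and in the second probe set it changed sign. Those 14 were the removal of each WT array, of each phr1 array, of phr3 replicates 2 and 3 and of phr123 replicates 1 (as labelled) and 3, quantile normalization, no filter, no trend in eBayes and a fit limited to both genotypes. The other probe sets of OsNAC6 were dim. The second read 26.5 to 68.9 in phr123, above the reporter level on 0 of 3 arrays, and passed in no comparison, and the third was below it on all 12 arrays.

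OsNAC2 (LOC4336052) encodes a factor linked to abscisic acid, senescence and tillering, and the gene table lists OsTIL1 as another of its names. It read 370, 338.3 and 411.7 in WT, 451, 317.2 and 241.7 in phr1, 443.2, 452.2 and 460.6 in phr3 and 357.9, 322 and 385.6 in phr123. The phr3 arrays lay above WT and phr123 and close together, and the phr1 arrays ran from below all the others to within the phr3 range. No comparison passed, with log2 changes from WT of -0.19 in phr1, 0.28 in phr3 and -0.07 in phr123 (limma adjusted p = 0.814, 0.635 and 0.809). The 95% interval of the phr123 change ran from -0.49 to 0.35, and the change was -0.079 with the doubted array left out.

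ONAC010 (LOC4343630) and OsNAC7 (LOC4341201) were below the signal filter of 49.4 and were not tested. ONAC010 read 2.2 to 103.7 over the 12 arrays, with a median of 33.7, and lay above the reporter level on 2 arrays, 1 of phr3 and 1 of phr123. OsNAC7 read 1 to 94.8 in its brighter probe set, with a median of 23.8, and lay above it on 2 arrays, 1 of WT and 1 of phr3. Neither gene was above that level on all arrays of any genotype, so no fold is given for them.

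**Figure D3:**
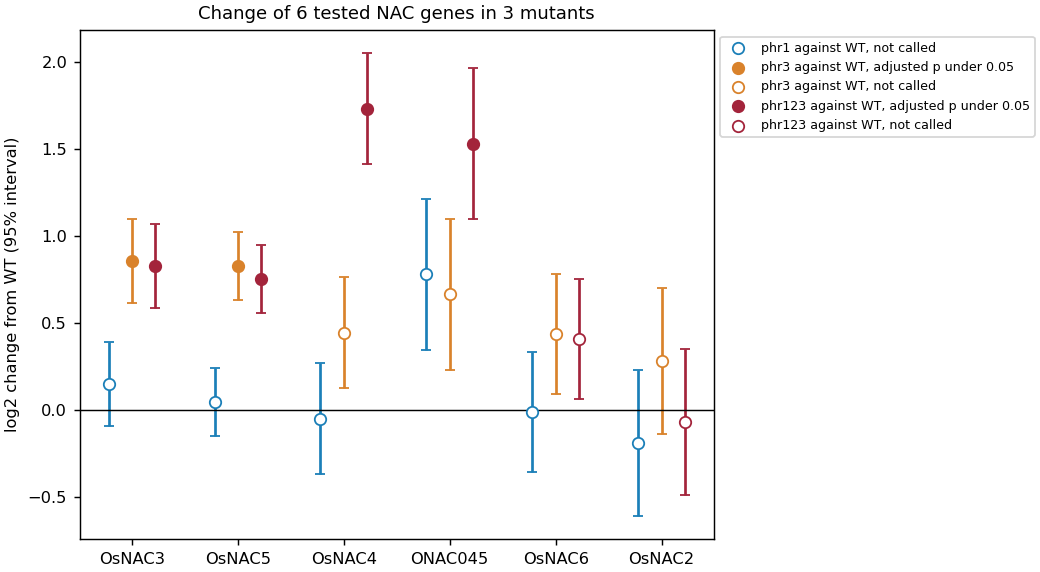
Log2 change from WT of the 6 tested NAC genes in phr1, phr3 and phr123, with 95% intervals from the limma fit (n = 3 arrays per genotype). Filled points passed at an adjusted p under 0.05. The highest points are OsNAC4 (1.73) and ONAC045 (1.53) in phr123, and all phr1 points are open.

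The counts over the members were read against the share of all 28597 probe sets tested. In phr1, 0 of 6 tested members passed in either direction (1 had an unadjusted p under 0.05), where 0.934% of probe sets passed. In phr3, 2 of 6 rose and 0 fell, where 1.26% of probe sets rose and 0.731% fell. All 6 had every phr3 array above every WT array, which held for 10.3% of probe sets. In phr123, 4 of 6 rose and 0 fell, where 20.5% of probe sets rose and 21% fell, and 4 of 6 lay wholly above WT, which held for 27.6%. The median log2 change of the 6 was 0.01 in phr1, 0.55 in phr3 and 0.79 in phr123, against 0.009, 0.012 and 0.016 over all probe sets tested. These comparisons use the same 3 WT arrays, so their likeness is no independent evidence. The counts against WT were the same without the array labelled phr123 replicate 1.

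Comparisons between mutants set no WT mean against another, although the WT arrays share in the estimate of the spread. phr123 was higher than phr1 in 5 of 6 members and lower in 0, where 20.8% of probe sets were higher and 22% lower. It was higher in 4 of 6 without the array labelled phr123 replicate 1, the exception being OsNAC6. Against phr3, phr123 was higher in 2 of 6, OsNAC4 and ONAC045, where 19.1% of probe sets were higher. phr1 was lower than phr3 in 2 of 6, OsNAC3 and OsNAC5, where 0.997% were lower. Of the 4 members that passed in phr123 against WT, OsNAC4 and ONAC045 thus lay above phr3, while OsNAC3 and OsNAC5 did not pass against phr3 in their brightest probe sets and the third probe set of OsNAC5 was lower in phr123 than in phr3. With the doubted array left out, the phr123 differences from phr1 were 0.77, 1.86, 0.76 and 0.79 for OsNAC3, OsNAC4, OsNAC5 and ONAC045, all of which passed (adjusted p up to 0.0175). Those from phr3 were 0.069, 1.36, -0.029 and 0.91, of which OsNAC4 and ONAC045 passed. Centring each array on its median shifted all log2 changes by -0.19 in phr1 against WT, 0.29 in phr123 against phr1, 0.17 in phr123 against phr3 and -0.12 in phr1 against phr3, and by less than 0.1 in the others. With centring the same counts of members passed against phr3 and in the other comparisons between mutants.

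Genes from processes in which NAC factors are known to act were picked by name in 3 lists. NAC factors are known to drive chlorophyll breakdown in senescing leaves. Of 6 tested genes of chlorophyll breakdown and senescence, 0 passed in phr1 or phr3, while 4 rose and 1 fell in phr123 (median log2 change 0.41), where 20.5% of all probe sets rose and 21% fell. With the doubted array left out 3 rose and 1 fell (median 0.36). SGR, which encodes the magnesium-removing enzyme that starts chlorophyll breakdown, rose from a mean of 3190 to 5990 (0.91, limma adjusted p = 0.00134). NYC1, a chlorophyll b reductase gene, rose from 1517 to 2324 (0.60, adjusted p = 0.0011), and NOL, which encodes its partner, fell from 1718 to 1045 (-0.72, adjusted p = 2.99e-05). The other 2 that rose are both listed as EIL1, an ethylene signalling factor. LOC4332697 rose by 0.68 (adjusted p = 0.0263), but this call was lost on removal of WT replicate 2, WT replicate 3 or the phr123 array labelled replicate 1, and with no trend in eBayes (adjusted p up to 0.102). LOC107276358 rose by 0.22 (adjusted p = 0.0211), but this call was lost on removal of WT replicate 1, WT replicate 3, phr123 replicate 2 or phr123 replicate 3, and with centring, no filter or no trend (adjusted p up to 0.094).

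Secondary walls, the thick lignified walls of vessels and fibres, are built under the control of NAC switches in plants. Of 16 tested genes of this list, 1 fell in phr1, 1 rose in phr3, and 3 rose and 9 fell in phr123 (median -0.90), where 20.5% of all probe sets rose and 21% fell. In phr1 0.934% of all probe sets passed in either direction, and in phr3 1.26% rose. With the doubted array left out 3 rose and 8 fell in phr123 (median -0.93). The gene that fell in phr1 was 4CL3 (-0.38, limma adjusted p = 0.0205), which was lost in 7 of 21 alternatives (adjusted p up to 0.11). These were the removal of WT replicates 1 and 2 and phr1 replicates 2 and 3, centring, no trend, and a fit limited to phr1 and WT. The cellulose synthase genes of secondary walls fell together in phr123. CESA4 fell from 3804 to 1940 (-0.97, limma adjusted p = 3.54e-06), CESA7 from 4544 to 1388 (-1.71, adjusted p = 6.49e-06) and CESA9 from 767.7 to 367.4 (-1.07, adjusted p = 4.84e-05). Laccase genes, from a family whose products can polymerise lignin, went both ways. They were taken by family name, whether or not each acts in secondary walls. LAC20 fell from 2163 to 156.7 (-3.88, adjusted p = 1.45e-07) and LAC4 by 1.96 on the log2 scale (adjusted p = 2.8e-07), while LAC24 rose by 3.76 (adjusted p = 0.000131). 4CL5, a phenylpropanoid enzyme gene, rose in phr123 from 606.6 to 2841 (2.23, adjusted p = 1.74e-08), and it was the 1 gene of the list that rose in phr3 (0.76, adjusted p = 0.00834).

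The third list, picked by gene name, was drawn up for water deficit and abscisic acid responses, the best known setting of OsNAC3, OsNAC5, OsNAC6 and ONAC045. Of 72 tested, 1 rose in phr1, 4 rose and 1 fell in phr3, and 21 rose and 14 fell in phr123 (median 0.11). The shares of all probe sets were 20.5% higher and 21% lower in phr123, and 1.26% higher and 0.731% lower in phr3. In phr1 the share was 0.934% in either direction. With the doubted array left out 22 rose and 12 fell in phr123. Most of the list, 52 of the 72, are genes of protein phosphatase 2C (PP2C), a family that holds brakes of abscisic acid signalling. They were taken by family name, whether or not each acts in that signalling, so the counts are not specific to it. Of these 52, 16 rose, 12 fell and 24 did not pass in phr123 (median log2 change 0.11). LEA19, which encodes a protective protein of drying tissue, rose in phr123 from a mean of 185.2 to 2790 (log2 change 4.003, limma adjusted p = 4.3e-07). RAB21, a dehydrin gene, rose in phr123 from 83.4 to 521 (2.70, adjusted p = 0.000599). Among those that fell, OsPP2C73 went from 1531 to 164.7 (-3.21, adjusted p = 1.06e-09), OsPP2C33 from 600.3 to 95.8 (-2.75, adjusted p = 1.3e-06) and OsSAPK4, a protein kinase gene, from 4318 to 2692 (-0.68, adjusted p = 3.25e-05). These PP2C examples come from the 12 that fell, while 16 PP2C genes rose. Of the 17 genes named from the lists in phr123, 16 kept direction and call with the doubted array left out, the exception being EIL1 LOC4332697. LEA19 was the 1 gene that fell in phr3 (-1.48, adjusted p = 0.0417), which was lost in 11 of 21 alternatives (adjusted p up to 0.151). These were the removal of WT replicates 1 and 2, phr1 replicates 2 and 3, phr3 replicates 1 and 2 and phr123 replicates 2 and 3, no trend, a fit limited to phr3 and WT, and the replicate block.

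In phr3, 4 of the 52 PP2C genes rose and 48 did not pass. OsPP2C32 rose from 556.3 to 1900 (1.76, limma adjusted p = 2.27e-05) and OsPP2C35 from 768 to 1502 (0.96, adjusted p = 0.000544), and both held under the 21 alternatives. OsPP2C48 rose by 0.56 (adjusted p = 0.00901), which was lost on removal of WT replicate 2 or phr3 replicate 3 and with centring (adjusted p up to 0.195). OsPP2C29 rose by 0.91 (adjusted p = 0.0349), which was lost in 12 of 21 alternatives (adjusted p up to 0.141), namely removal of each WT array, phr3 replicates 2 and 3 and phr123 replicates 2 and 3, centring, no filter, no trend, a fit limited to phr3 and WT, and the replicate block. OsPP2C32 was also the 1 gene that rose in phr1 (0.82, adjusted p = 0.0122), which was lost on removal of WT replicate 1 or phr1 replicate 3, with centring and with no trend (adjusted p up to 0.138).

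**Figure D4:**
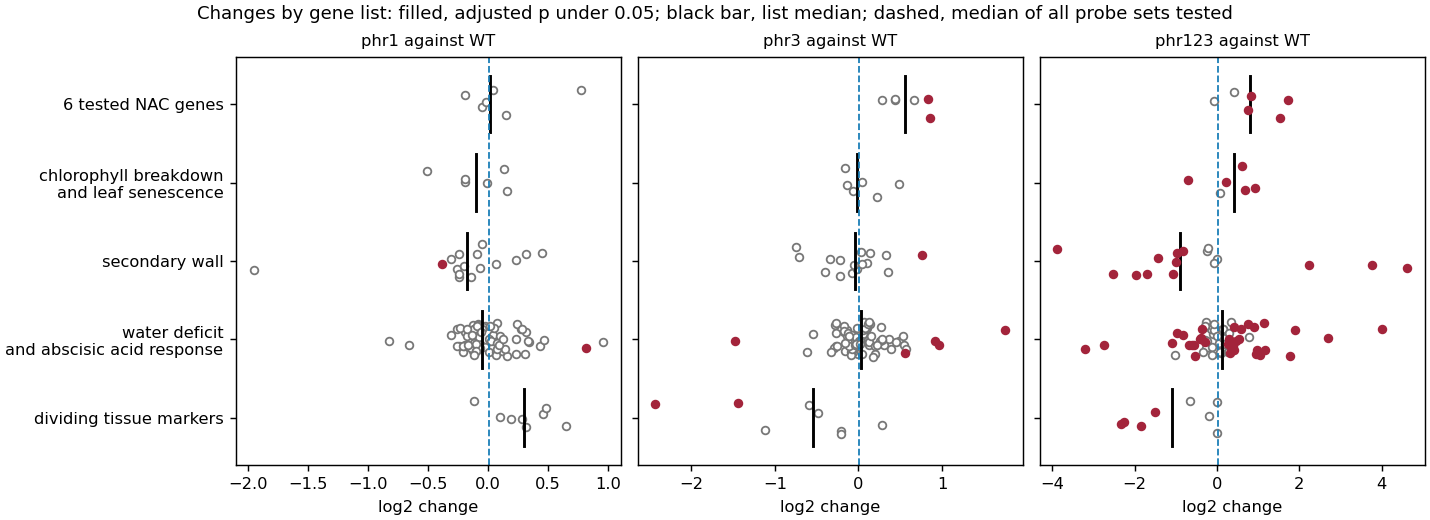
Log2 change from WT (horizontal axis, with a different range in each panel) of the 6 tested NAC genes and of the genes of 4 lists, in phr1, phr3 and phr123. Filled points passed at an adjusted p under 0.05, black bars are list medians and the dashed line is the median of all probe sets tested. The NAC median is 0.01 in phr1, 0.55 in phr3 and 0.79 in phr123, and in phr123 the medians of the secondary wall list (-0.90) and of dividing tissue markers (-1.08) lie on the other side of 0.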

How the data were processed

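Each of 12 Affymetrix rice GeneChip arrays has 1 deposited intensity (a linear signal) per probe set, made by the authors with MAS5 according to the submitters' processing notes (version not given). Every array had a trimmed mean of 500.1, as MAS5 scaling of each array would leave it. The steps below used R 4.3.3 and limma 3.58.1. Leaving out 123 AFFX and 64 reporter controls left 57194 probe sets. The 28597 with a mean log2 signal at or above the median (a signal of 49.4) were tested, with no added scaling. lmFit with 1 mean per genotype used all 12 arrays (8 residual degrees of freedom), and eBayes used a mean-variance trend. Adjusted p-values are Benjamini-Hochberg over all probe sets tested, with a threshold of 0.05. The small number of arrays limits the precision.

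Gene names came from the platform annotation (22436 probe sets with 1 gene, 95 with several, 34663 with none), and synonyms from the RefSeq gene table of assembly ASM3414082v1. Each gene was read from its brightest probe set by mean log2 signal. The reporter level of an array was the 95th percentile of 61 reporter controls; 3 probe sets of 1 sequence with signal in phr123 were left out after that signal was seen. Named were all members that passed against WT or between mutants, and, as all fit the limit, every other member. From the lists, examples were chosen after their values were seen. The members and lists were chosen with earlier results of these data known. The replicate numbers showed no pairing of the arrays over all tested probe sets, and the main fit used none. Alternatives were other scalings, pseudocount, filters, moderation, a fit of 2 genotypes, the replicate block, other probe sets and leaving out each array.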

Additional observations from a re-analysis of the deposited data

Results flagged for a closer look

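Outside the comparisons, 1 reporter control sequence had signal in phr123 above that in WT. In its brightest probe set the mean was 421.6 ± 43.7 in phr123 (SD, n = 3), with arrays from 373.5 to 458.8, against 13.7 to 119 in WT, 5.4 to 103.6 in phr1 and 33.4 to 90.1 in phr3. All 3 phr123 arrays carried it, including the one labelled replicate 1.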

How the results depend on the processing

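Under the alternatives run (21 to 23 for each member's change, 22 for each count), the count of members that passed was 0 in phr1 against WT and 2 in phr1 against phr3 throughout. It was 2 in phr3 against WT and in phr123 against phr3, 4 or 5 in phr123 against WT and 4 or 5 in phr123 against phr1. When all probe sets of the members were counted, 3 probe sets passed in phr3 against WT and 3 in phr123 against phr3. The added ones were other probe sets of OsNAC5. The second brightest rose in phr3, and the third was lower in phr123 than in phr3. Leaving out each array gave 4 to 5 in phr123 against WT and in phr123 against phr1, and moved no other count. The calls of OsNAC3, OsNAC4 and ONAC045 held under all alternatives, and those of OsNAC5 under all but its other probe sets. Of the 774 values for single members, 728 kept direction and call, 20 lost a call, 5 gained one and 21 changed sign, for which the cause was not tested. Each of these 21 had a main log2 difference that did not pass, except phr123 against phr1 for OsNAC6.

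With arrays centred on their medians the differences that changed sign were -0.0014 for ONAC045 and phr1 against phr3, 0.025 for OsNAC2 and phr123 against WT, -0.046 for OsNAC3 and -0.15 for OsNAC5 in phr1 against WT, and 0.14, 0.099 and 0.14 for OsNAC3, OsNAC5 and OsNAC6 in phr123 against phr3. In the dim second probe set of OsNAC6 they were -0.15 in phr3 and -0.68 in phr123 against WT and -0.32 in phr123 against phr1. Leaving out single arrays gave ranges across 0 for OsNAC2 (-0.43 to 0.023 in phr1 against WT, -0.14 to 0.0017 in phr123 against WT, -0.095 to 0.36 in phr123 against phr1), OsNAC3 (-0.12 to 0.069 in phr123 against phr3), OsNAC4 (-0.20 to 0.046 in phr1 against WT) and OsNAC6 (-0.066 to 0.072 in phr1 against WT, -0.15 to 0.20 in phr123 against phr3).

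Same-numbered arrays of different genotypes did not deviate together over all tested probe sets (r from -0.0464 to 0.0323 over 18 pairs). Such correlations cannot exclude a pairing that touches few genes. With the replicate block the counts were 0, 2 and 5 in phr1, phr3 and phr123 against WT, and 5, 2 and 2 in phr123 against phr1, phr123 against phr3 and phr1 against phr3, and 1 of 12 arrays lay closest to its own number. Among the gene lists, the count that passed in phr3 for water deficit fell from 5 to 2 without WT replicate 2 and to 3 without WT replicate 1, phr3 replicates 2 or 3 or phr123 replicates 2 or 3, with centring, with no trend and in a fit limited to both genotypes. In phr1 this list and that of secondary walls went from 1 to 0 where the calls of OsPP2C32 and 4CL3 were lost, and secondary walls from 1 to 2 in phr3 without phr3 replicate 1. Chlorophyll breakdown went from 5 to 3 in phr123 without WT replicate 3 or with no trend, and from 0 to 1 in phr1 without phr3 replicate 1. Photosynthesis markers went from 5 to 2 in phr123 with centring and to 3 with quantile normalization or no filter. Low signal limits ONAC010 and OsNAC7, for which no change could be read, and 3 arrays per genotype limit the rest.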
